A study of Mus musculus with 6 samples.

Results

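The interstitial collagens and matrix proteins are 10 genes, namely Col1a1, Col1a2, Col3a1, Col5a1, Col5a2, Fn1, Dcn, Lum, Postn and Tnc. They were followed over all probe sets whose platform annotation gives exactly 1 symbol, that of a member, which found 20 of the 45101 probe sets on the array. Whole mouse kidneys of embryonic day 12.5 were measured on 6 single-colour Affymetrix arrays. Normal kidneys gave 3 of them. The other 3 came from kidneys carrying a beta-catenin allele with loxP sites around exons 2 to 6 together with the Hoxb7-Cre:Gfp transgene, whose promoter is active in the ureteric bud, so that the deletion is aimed at the epithelial tree and not at the interstitial cells. Per the labels, the kidneys of a group were distributed randomly over 3 vials, and 1 µg of total RNA from each was labelled with biotin. How many animals a vial holds, and their strain, is not given in the sources used here, so the p-values cover the variation of these 3 vials per group only, which may be partly technical. Titles and source names mark the knockout samples as such, whereas their description wording is that of the normal ones, and all directions follow the titles.

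Interstitial matrix is laid down mainly by fibroblast-like stromal cells. Its fibrils are built of type I collagen (chains encoded by Col1a1 and Col1a2) and type III collagen (Col3a1), with type V collagen (Col5a1, Col5a2) at the core of the fibril, where it sets fibril diameter. Decorin and lumican are small leucine-rich proteoglycans that coat the fibrils, fibronectin forms the provisional network on which collagen assembles, and periostin and tenascin-C are matricellular proteins of growing and remodelling mesenchyme. In the embryonic kidney this matrix surrounds the nephron progenitors and the ureteric tree, and muscle, cartilage and connective tissue next to the kidney make the same proteins.

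The reference table (RefSeq, GRCm38.p6) held promoter windows for 5 of the 10 members. They are shown because most member probe sets were high and low on the same arrays, as described below. A link between that order and the promoters was not tested. Each is the 150 bases just before an annotated start, 5′ to 3′, with position -1 the base before the start. Capitals mark matches on either strand to CCAAT, to GGGCGG or to TATANA, and where matches overlap the whole run is in capitals. For Postn the downstream and for Tnc the upstream of 2 listed starts is shown.
Col1a2, chr6:4505468-4505617, plus strand: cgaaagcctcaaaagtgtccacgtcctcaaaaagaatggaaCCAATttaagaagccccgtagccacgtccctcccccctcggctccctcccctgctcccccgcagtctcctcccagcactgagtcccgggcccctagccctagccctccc
Col3a1, chr1:45311388-45311537, plus strand: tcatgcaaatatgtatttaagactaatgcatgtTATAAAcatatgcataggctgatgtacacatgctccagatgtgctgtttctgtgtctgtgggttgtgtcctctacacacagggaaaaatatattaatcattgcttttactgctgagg
Col5a1, chr2:27886275-27886424, plus strand: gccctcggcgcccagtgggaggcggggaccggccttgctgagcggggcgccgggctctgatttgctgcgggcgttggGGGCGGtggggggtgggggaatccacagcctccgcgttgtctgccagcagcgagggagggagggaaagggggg
Postn, chr3:54360957-54361106, plus strand: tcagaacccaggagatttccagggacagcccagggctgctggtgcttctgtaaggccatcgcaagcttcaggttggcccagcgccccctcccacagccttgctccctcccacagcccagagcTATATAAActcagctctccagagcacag
Tnc, chr4:64047016-64047165, minus strand: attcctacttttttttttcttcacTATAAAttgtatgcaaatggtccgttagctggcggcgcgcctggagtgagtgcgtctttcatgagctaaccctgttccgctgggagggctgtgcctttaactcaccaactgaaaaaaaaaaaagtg
The first base of the match lay at -109 for CCAAT in Col1a2, at -73 for GGGCGG in Col5a1, and for TATANA at -117 in Col3a1, at -28 and -26 in Postn and at -126 in Tnc. The downstream Tnc start, not printed, had TATANA at -29, and the upstream Postn start had no match. Over all 32851 windows of this length in the table, CCAAT was found in 24.5%, GGGCGG in 28.6% and TATANA in 13.3%. No motif was shared by all 5 windows, and a match is a description of the letters only.

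No member probe set above the filter on dim signals differed between knockout and normal kidneys beyond the spread between arrays. Of the 20 member probe sets, 17 passed the filter on dim signals, and 0 of these 17 passed a limma adjusted p of 0.05, where 0.581% of all 27022 kept probe sets did. At an unadjusted limma p under 0.05 there were also 0 of 17, against 11.5% of all kept probe sets. The smallest limma adjusted p of any kept member probe set was 0.440, for Fn1. The knockout and normal arrays overlapped for all 17, whereas 17.9% of all kept probe sets had groups that did not overlap. Of the 17, 10 had a negative and 7 a positive log2 difference, with a median of -0.10 beside -0.01 over all kept probe sets. Of all kept probe sets, 0.381% passed as higher and 0.200% as lower in the knockout. The members' median rests on single arrays: it was 0.13 without normal replicate 1, 0.03 without knockout replicate 3 and -0.31 without knockout replicate 2, and 0.01 with array weights. Whole-kidney signals cannot tell the number of matrix-making cells from the RNA per cell, and no fall or rise of the members was called here.

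**Figure D1:**
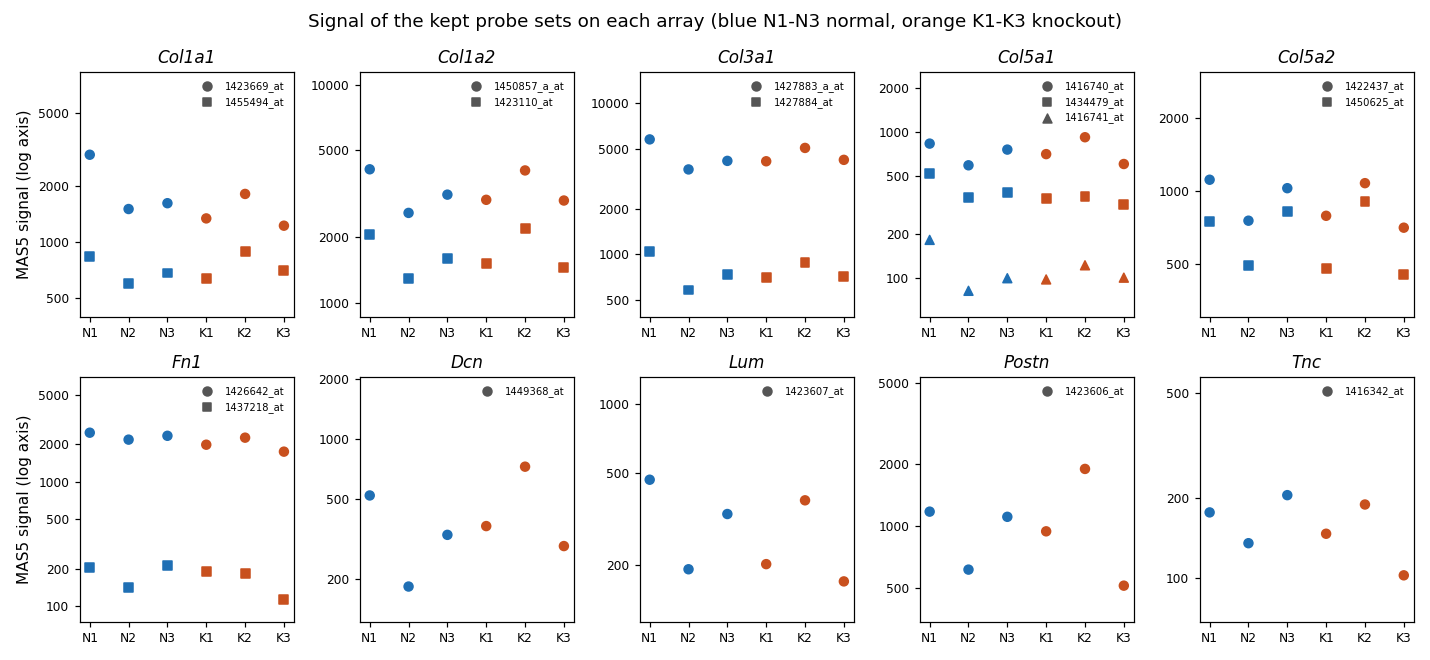
MAS5 signal (log axis, arbitrary units) of the 17 kept member probe sets on the 3 normal arrays (N1 to N3, blue) and the 3 knockout arrays (K1 to K3, orange), 1 panel per gene and 1 marker shape per probe set. In every panel the colours overlap; normal replicate 1 and knockout replicate 2 are usually highest, normal replicate 2 and knockout replicate 3 lowest.

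Type I collagen, the main fibril of bone, tendon and stroma, was read by 5 probe sets. Col1a1 probe set 1423669_at gave signals of 2958.6, 1506.9 and 1620.1 on the normal arrays and of 1341.2, 1817.7 and 1225.2 on the knockout arrays, each in the order of replicates 1 to 3, as in all such sentences. Normal replicate 1 stood far above the other arrays, and knockout replicate 2 lay above the other normal arrays. The log2 difference, knockout minus normal, was -0.42 (SE 0.25, 95% interval from -0.98 to 0.13; limma adjusted p = 0.540), and without normal replicate 1 it was -0.12. Col1a1 probe set 1455494_at read 839.8, 594.2 and 680.8 in normal and 635.7, 884 and 701.2 in knockout kidneys. Its difference was 0.07 (SE 0.15, 95% interval from -0.28 to 0.42; limma adjusted p = 0.886), so both signs occur within the gene.

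Col1a2, which encodes the partner chain of Col1a1, read 4097.5, 2584.5 and 3135 in normal and 2968.1, 4048.6 and 2945.9 in knockout kidneys by its brightest probe set, 1450857_a_at. The highest array of each group was again normal replicate 1 and knockout replicate 2, and the groups covered nearly the same range. The log2 difference was 0.03 (SE 0.18, 95% interval from -0.37 to 0.43; limma adjusted p = 0.961). The probe set 1423110_at gave 0.06 (SE 0.19; limma adjusted p = 0.929). The last Col1a2 probe set, 1446326_at, lay below the filter and read at most 17.7 on any array.

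Col3a1, the type III chain of distensible tissues, read 5750.7, 3637.8 and 4144.7 in normal and 4120, 5050 and 4210.1 in knockout kidneys by probe set 1427883_a_at. The knockout arrays lay inside the range of the normal ones. The log2 difference was 0.00 (SE 0.16), and its 95% interval, from -0.35 to 0.36, corresponds to a knockout level between 0.783 and 1.29 times the normal one (limma adjusted p = 0.994). The dimmer probe set 1427884_at gave -0.01 (SE 0.20; limma adjusted p = 0.991). For these probe sets a doubling or a halving lies outside the interval.

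Type V collagen, the nucleator of collagen fibrils, was read by 5 probe sets, 3 of Col5a1 and 2 of Col5a2. Col5a1 probe set 1416740_at read 834.5, 592.9 and 759.3 in normal and 707.1, 922.5 and 605.1 in knockout kidneys, a log2 difference of 0.02 (SE 0.17, 95% interval from -0.36 to 0.41; limma adjusted p = 0.970). The groups covered nearly the same range, knockout replicate 2 being the highest array and normal replicate 2 the lowest. Col5a1 probe set 1434479_at read 524.6, 356.6 and 385.3 in normal and 353.7, 365.1 and 320.1 in knockout kidneys, -0.27 (SE 0.15; limma adjusted p = 0.521), with the overlap made by knockout replicate 2 against normal replicate 2. The dimmest, 1416741_at, gave -0.10 (SE 0.27; limma adjusted p = 0.911). Col5a2 read 1112.3, 752.4 and 1026.1 in normal and 788.4, 1076.5 and 703.8 in knockout kidneys by probe set 1422437_at. Knockout replicate 2 lay with the higher normal arrays and the other knockout arrays near the lowest normal one. The difference was -0.17 (SE 0.18, 95% interval from -0.59 to 0.24; limma adjusted p = 0.740), and the other Col5a2 probe set, 1450625_at, gave -0.21 (SE 0.27; limma adjusted p = 0.804).

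Fn1, the gene of fibronectin, read 2482.9, 2183.6 and 2344.4 in normal and 1987.8, 2264.5 and 1747.8 in knockout kidneys by probe set 1426642_at. It was the steadiest member, and 2 of the 3 knockout arrays lay below all normal arrays. The log2 difference was -0.23 (SE 0.10, 95% interval from -0.47 to 0.00; limma adjusted p = 0.440, unadjusted p = 0.0531). The dimmer probe set 1437218_at read 204.2, 140.2 and 211.8 in normal and 190.8, 182.4 and 112.1 in knockout kidneys, with a difference of -0.21 (SE 0.23; limma adjusted p = 0.756).

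Dcn, the gene of decorin, which binds collagen and holds growth factors such as TGF-beta, read 522.3, 183.3 and 332.1 in normal and 367.3, 727.2 and 291.9 in knockout kidneys by probe set 1449368_at. Its highest array, knockout replicate 2, was 3.97 times its lowest, normal replicate 2. The log2 difference was 0.43 (SE 0.40, 95% interval from -0.48 to 1.35; limma adjusted p = 0.701), and it was 0.05 when knockout replicate 2 was left out and 0.04 when normal replicate 2 was. Leaving out normal replicate 1 or knockout replicate 3 raised it to 0.79 and 0.71. The other Dcn probe set, 1441506_at, lay below the filter, at 16.9 on knockout replicate 2 and at most 6.7 elsewhere. Lum, the gene of lumican, read 469.1, 191 and 332.5 in normal and 201.1, 381.5 and 169.1 in knockout kidneys. Its highest array was normal replicate 1. The difference was -0.40 (SE 0.36, 95% interval from -1.21 to 0.42; limma adjusted p = 0.689), and it was -0.75 without knockout replicate 2 or normal replicate 2, -0.10 without normal replicate 1 and -0.16 without knockout replicate 3.

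Postn, the gene of periostin, read 1177.6, 614.6 and 1111.1 in normal and 944.2, 1901.2 and 513.4 in knockout kidneys. The highest and the lowest array of all 6 were both knockout arrays. The log2 difference was 0.07 (SE 0.42, 95% interval from -0.89 to 1.02; limma adjusted p = 0.966), and it was -0.42 without knockout replicate 2 and 0.53 without knockout replicate 3. Tnc, the gene of tenascin-C, read 176.6, 135 and 205.3 in normal and 146.6, 189.2 and 102 in knockout kidneys by probe set 1416342_at, a difference of -0.26 (SE 0.24, 95% interval from -0.80 to 0.28; limma adjusted p = 0.690). This Tnc value was -0.47 when knockout replicate 2 was left out and -0.43 when normal replicate 2 was. Leaving out normal replicate 3 or knockout replicate 3 gave -0.13 and -0.03. The intervals of Dcn and Postn include a doubling and that of Lum a halving, so changes of that size are not excluded.

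A second Tnc probe set, 1456344_at, was the member probe set whose groups did not overlap. It read 17.9, 12.6 and 22.7 in normal and 4.5, 4.4 and 2.9 in knockout kidneys, dim on every array, and its mean lay below the filter level of 14.7. In the limma fit run without the filter its log2 difference was -2.16 (SE 0.59; unadjusted p = 0.00449, adjusted p = 0.281). In that fit 0.333% of 45037 probe sets passed the adjusted threshold, 9.06% had an unadjusted p under 0.05, and 14.7% had groups that did not overlap, beside 1 of the 20 member probe sets for each of the last measures.

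**Figure D2:**
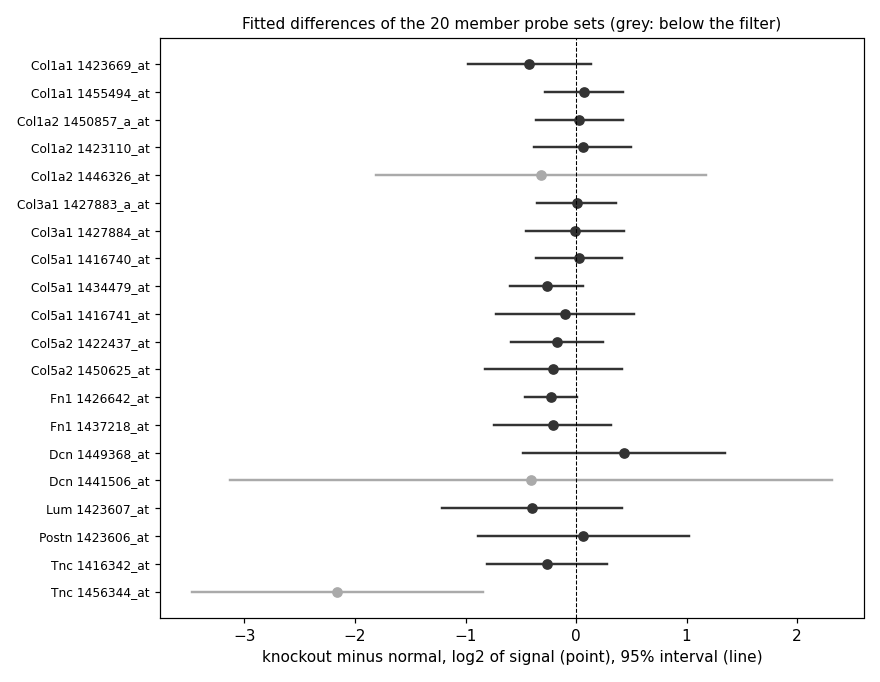
Knockout minus normal difference of the log2 signal (point) with its 95% interval (line) for all 20 member probe sets, from the limma fit; grey marks the 3 below the filter, taken from the fit without it. All 17 kept intervals include 0, the narrowest being that of the brighter Fn1 probe set and the widest those of Postn, Dcn and Lum.

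What the members shared was their order over the arrays. Of the 17 kept member probe sets, 9 were highest in normal replicate 1, 6 in knockout replicate 2 and 2 in normal replicate 3. All 17 were lowest in normal replicate 2 (8) or knockout replicate 3 (9). Among all kept probe sets, 44.1% were highest in normal replicate 1 or knockout replicate 2 and 40.7% lowest in normal replicate 2 or knockout replicate 3. Both held for 15 of the 17 member probe sets and for 20.7% of all. These arrays were picked because the members stood highest and lowest there, so the comparison with all kept probe sets is no test. Normal replicate 2 and knockout replicate 3 also had the lowest median signals of all probe sets, 24.9 and 25.1, against 30.5 to 32.1 on the other arrays. With all arrays set to a common median, a planned scaling whose use on the array order was added after seeing the data, both held for 12 of the 17 member probe sets and for 12.7% of all. Erythroid markers stood highest on the arrays where the members stood lowest, with mean log2 signals relative to the normal arrays of 0.61 in normal replicate 2 and 1.11 in knockout replicate 3, against -0.39 to 0.49 on the other arrays, and their part in this order was not tested. Probe sets of 1 gene share their transcript and the members share arrays, so these counts are descriptions.

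Relative to each gene's mean over the normal arrays, the mean log2 signal of the 10 members (brightest kept probe set of each) was 0.36, -0.41 and 0.05 on the normal arrays and -0.19, 0.36 and -0.45 on the knockout arrays. The spread within each group, an SD of 0.39 in normal and 0.42 in knockout arrays (n = 3 per group), exceeded the difference between the group means, -0.09. The 5 collagens stood at 0.36, -0.32 and -0.04 in normal and -0.21, 0.19 and -0.31 in knockout arrays, and the 5 other members at 0.36, -0.50 and 0.14 and at -0.17, 0.53 and -0.60. The collagens therefore spanned less than the proteoglycans, fibronectin and matricellular proteins as a group.

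The members varied more between replicates than the median kept probe set at least as bright as the dimmest kept member. That set was not matched to the brightness of each member. The SD within groups of the log2 signal was 0.76 for Postn, 0.72 for Dcn and 0.64 for Lum, and 0.15 for the brighter Fn1 probe set, the least variable member. Among 13308 kept probe sets at least as bright as the dimmest kept member, the median SD was 0.14, and all 17 member probe sets lay above it. Postn exceeded 99.6% of them, the brighter Col3a1 probe set 87.4% and the brighter Fn1 probe set 53.5%.

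**Figure D3:**
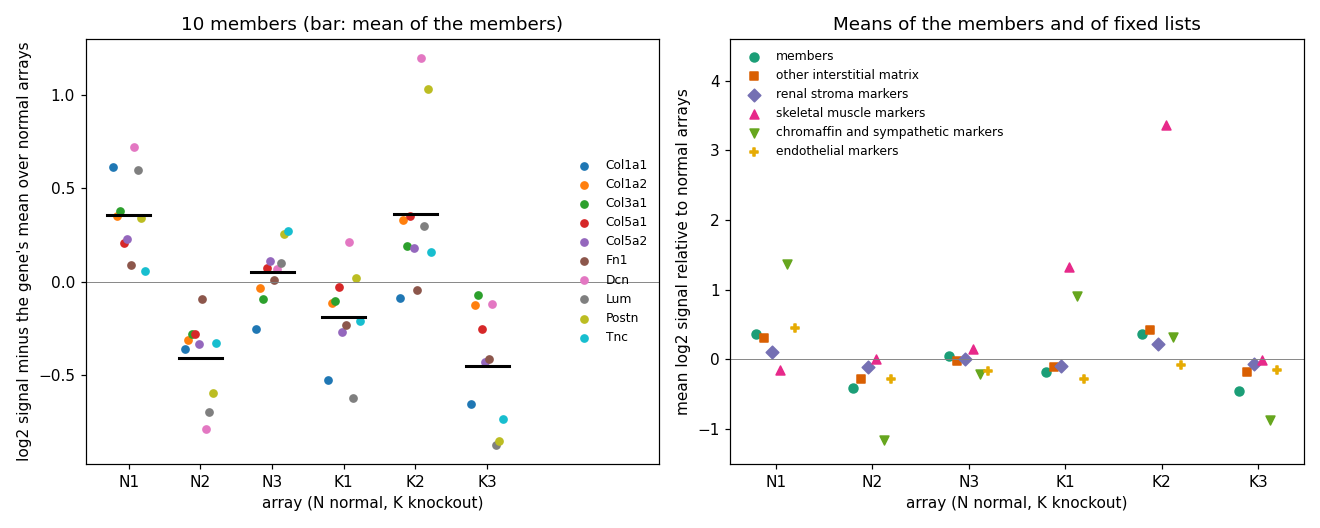
Left, log2 signal of each of the 10 members (brightest kept probe set) minus its mean over the normal arrays, by array, with black bars for the mean of the members. Right, the same mean for the members and for 5 fixed lists. The members stand highest in normal replicate 1 and knockout replicate 2; skeletal muscle markers are far above the rest in knockout replicate 2, at 3.37.

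Markers of other tissues also differed between arrays, and their part in the spread of the matrix genes was not tested. Of 16 skeletal muscle markers, 12 were kept, with a summed signal of 653 to 727 on the normal arrays and of 1443, 7172 and 764 on knockout replicates 1 to 3. Actc1, the brightest of them, read 2458.6 on knockout replicate 2 against 188.3 to 469.9 on the other arrays. Of the 17 kept member probe sets, 6 were also highest in knockout replicate 2, 1 each of Col1a1, Col1a2, Col5a1, Col5a2, Dcn and Postn, and 9 in normal replicate 1. In normal replicate 1, where the members averaged 0.36, the muscle sum was 727. In knockout replicate 3, where the members averaged -0.45, it was 764. The mean log2 signal of the muscle list relative to the normal arrays was -0.15 in normal replicate 1 and -0.01 in knockout replicate 3. Of 12 chromaffin and sympathetic markers 10 were kept, and their sum was highest in normal replicate 1 (2270), next in knockout replicate 1 (1572) and 451 to 920 on the other arrays; Gata2 was the brightest. Endothelial markers, all 8 kept and led by Emcn, summed to 2118 in normal replicate 1 and to 1342 to 1615 elsewhere. Cartilage and bone markers, 7 of 14 kept and led by Col9a1, summed to 938 to 1268 on all arrays. None of the probe sets of these lists had a value of 0 on any array.

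The markers of the kidney itself were present on every array. The renal stroma list, 10 of 12 kept and led by Aldh1a2, the retinoic acid enzyme of the stroma, summed to 11627 to 12247 in normal and 11022 to 13024 in knockout kidneys, with a median log2 difference of 0.02. Its mean log2 signal relative to the normal arrays was highest in knockout replicate 2 (0.22) and normal replicate 1 (0.10), where the members' mean was highest too. The stroma mean was lowest in normal replicate 2 (-0.10), with -0.09 and -0.07 in knockout replicates 1 and 3. Nephron progenitor markers (9 of 10 kept, led by Eya1) had a median of -0.18 and ureteric bud markers (10 of 12 kept, led by Krt18) one of -0.09. The macrophage list (10 of 11 kept, led by Csf1r) summed to 1071, 501 and 826 on the normal and to 1014, 1444 and 1091 on the knockout arrays, with a median of 0.71. The sum of this list was lowest in normal replicate 2 and highest in knockout replicate 2, whereas the members' mean was lowest in knockout replicate 3 (-0.45). The erythroid list (7 of 8 kept, led by Hbb-y) summed to 12656, 18200 and 12655 on the normal and to 15909, 15817 and 22188 on the knockout arrays, with a median of 0.86. The muscle list had a median of 1.72. The chromaffin, endothelial and cartilage lists stood at 0.07, -0.16 and -0.01. None of the genes kept in these 9 lists passed the limma adjusted threshold. The median over all 12464 genes was 0.00, and 0.602% of them passed. An unadjusted limma p under 0.05 was found for 5 muscle (41.7%), 4 macrophage (40%) and 3 erythroid genes (42.9%), all higher in the knockout. It was found for 3 nephron progenitor genes (33.3%) and for 0% to 25% of each other list, beside 11.7% over all genes. The targeted gene, Ctnnb1, differed by 0.09 (SE 0.08; limma adjusted p = 0.695), and where its probes lie relative to the deleted exons is not analysed here.

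Among genes that process collagen none passed. Of 27 enzymes and helpers of collagen folding, hydroxylation, trimming and crosslinking 22 were kept, 15 with a negative and 7 with a positive difference, median -0.11, and 0 passed the limma adjusted threshold, while an unadjusted limma p under 0.05 was found for 4 (18.2%, beside 11.7% over all genes). Pcolce, the enhancer of the protease that trims procollagen, read 956.6, 920.8 and 1007.8 in normal and 1073.9, 1334.9 and 1167.8 in knockout kidneys. All knockout arrays lay above all normal arrays; groups that did not overlap were found for 19.3% of all genes. The difference was 0.31 (SE 0.10; limma adjusted p = 0.304), and with the mean of the gene's probe sets it was 0.08 (limma adjusted p = 0.866). Plod1, a lysyl hydroxylase that prepares collagen for crosslinking, read 246.5, 176 and 177.9 in normal and 130.6, 161 and 126.5 in knockout kidneys, a difference of -0.51 (SE 0.17; limma adjusted p = 0.328).

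Of 34 other interstitial matrix genes (further collagens, fibrillins, fibulins, proteoglycans) 27 were kept, 13 with a positive and 14 with a negative difference, median -0.01, and 0 passed the limma adjusted threshold, with 4 (14.8%, beside 11.7% over all genes) at an unadjusted limma p under 0.05. The list mean was highest in knockout replicate 2 (0.42) and normal replicate 1 (0.31) and lowest in normal replicate 2 (-0.29), with -0.18 in knockout replicate 3, where the members' mean was lowest. Emilin1, a glycoprotein of elastic fibres, read 640.2, 604.7 and 566.1 in normal and 442.2, 528.8 and 490.3 in knockout kidneys, and the groups did not overlap (-0.31, SE 0.10; limma adjusted p = 0.310). Fbn2, the embryonic fibrillin, gave -0.33 (SE 0.12; limma adjusted p = 0.376), with knockout replicate 2 above the lowest normal array, and -0.16 with the mean of its probe sets (limma adjusted p = 0.631). Without normal replicate 1, 1 gene of this list passed, Mgp, the inhibitor of matrix calcification, at 0.70 (limma adjusted p = 0.0286), against 0.44 (SE 0.19; limma adjusted p = 0.431) with all arrays; it is named because it alone passed there.

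Of 20 receptors that bind these proteins, integrins, syndecans and discoidin domain receptors among them, 17 were kept, 7 with a positive and 10 with a negative difference, median -0.20. The limma adjusted threshold was passed by 1, where 0.602% of all genes passed, and 4 (23.5%, beside 11.7% over all genes) had an unadjusted limma p under 0.05. That gene was Sdc4, a heparan sulfate proteoglycan that acts with integrins on fibronectin. It fell from 249.7, 220.6 and 355.2 in normal to 115.9, 84.7 and 100.9 in knockout kidneys, a log2 difference of -1.43 (SE 0.20; limma adjusted p = 0.0181). Its other probe set, 1417654_at, had the opposite sign at 1.08 (SE 0.25; limma adjusted p = 0.143), and the mean of both gave -0.18 (limma adjusted p = 0.756), so the fall holds for 1 probe set alone. The call was lost without knockout replicate 2 (-1.32, limma adjusted p = 0.0886), without knockout replicate 3 (-1.44, limma adjusted p = 0.0668), without both replicates 1 (-1.60, limma adjusted p = 0.1002) and without the intensity trend (-1.43, limma adjusted p = 0.135), while the difference stayed about as large.

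Of 23 genes of TGF-beta signalling, the pathway best known for raising collagen production, 19 were kept, 12 with a positive and 7 with a negative difference, median 0.04, and 0 passed the limma adjusted threshold, with 3 (15.8%, beside 11.7% over all genes) at an unadjusted limma p under 0.05. The list mean was highest in normal replicate 1 (0.22) and knockout replicate 2 (0.10) and lowest in normal replicate 2 (-0.16). The receptor Tgfbr2 read 507.4, 430 and 499.8 in normal and 639.6, 722.7 and 576.3 in knockout kidneys, 0.43 (SE 0.11; limma adjusted p = 0.206). The groups did not overlap, and the mean of the gene's probe sets gave 0.24 (limma adjusted p = 0.480). Ltbp4, which anchors latent TGF-beta in the matrix, read 197.7, 104.8 and 88.8 in normal and 59.3, 85.2 and 58 in knockout kidneys, -0.88 (SE 0.30; limma adjusted p = 0.338), and normal replicate 1 again stood apart.

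Members were also compared with each other within an array. The gap between 2 log2 signals of an array depends on the probes, so only its change between arrays is read. The gap of Dcn over Lum, neighbouring genes in the reference gene table whose products share a protein family, was 0.15, -0.06 and 0.00 on the normal arrays and 0.87, 0.93 and 0.79 on the knockout arrays. The groups did not overlap, at 0.03 ± 0.11 and 0.86 ± 0.07 (mean ± SD over 3 arrays each), a change of 0.83. An exact two-sided permutation test gave p = 0.1, the smallest that 3 arrays against 3 allow, and 0.5 after Benjamini-Hochberg adjustment over the 45 pairs of members. This pair was singled out after the values were seen. In all, 9 of the 45 pairs had gaps that did not overlap, the same share as the 20.0% found over all pairs of the 12464 genes, so the count is at the background. A gap that did not overlap and changed at least as much as that of Dcn and Lum was found in 4.21% of all pairs of genes. Among the 45 pairs of members, Col1a1 minus Dcn also met this, with a change of -0.86. That gap used Col1a1 probe set 1423669_at, with a log2 difference of -0.42. The other Col1a1 probe set, 1455494_at, at 0.07, was not compared with Dcn.

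Other pairs without overlap involved Col1a1 against Col1a2, whose products assemble into 1 molecule. The gap was -0.47, -0.78 and -0.95 in normal and -1.15, -1.16 and -1.27 in knockout kidneys, a change of -0.46 (exact permutation p = 0.1, adjusted p = 0.5). It depends on the Col1a1 probe set: the gap between the brighter and the dimmer Col1a1 probe set was itself 1.82, 1.34 and 1.25 in normal and 1.08, 1.04 and 0.81 in knockout kidneys. That pair of probe sets was the 1 without overlap among the 8 pairs of kept probe sets of the same member (exact permutation p = 0.1, adjusted p = 0.8). The Col1a2 probe sets kept a steadier gap, 0.99 ± 0.01 on the normal and 0.96 ± 0.07 on the knockout arrays (mean ± SD over 3 arrays each; exact permutation p = 0.7).

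**Figure D4:**
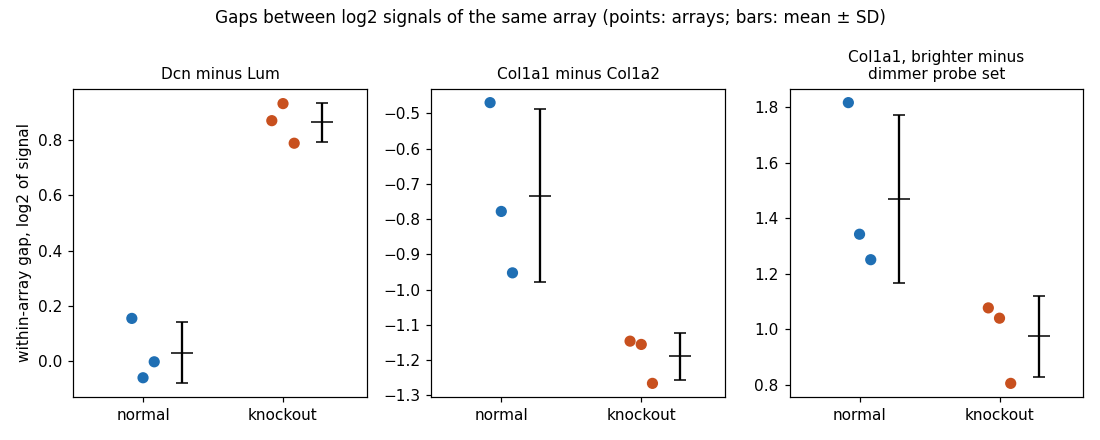
Within-array gaps of log2 signals for Dcn minus Lum, Col1a1 minus Col1a2, and the brighter minus the dimmer Col1a1 probe set, 1 point per array, with the mean and SD of each group beside the points (n = 3 per group; the vertical axes do not start at 0). The knockout arrays lie above the normal ones for Dcn minus Lum, by 0.83, and below them in the other panels.

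The genes nearest to the collagens in their course over the 6 arrays were Gpr85, Pear1, Col15a1, Bcl7c and Cav1. Nearness was the root mean square difference from the mean log2 profile of the 5 collagens, each gene less its own mean, and it was 0.05 for Gpr85 and Pear1 and 0.06 for the other three, against a median of 0.31 over 12454 genes. These genes were picked as the smallest of the 12454 values, so lying under the median is no test. Within 0.1 of the profile lay 39 of the 12454 genes. Col15a1 encodes a collagen of basement membrane zones. Among the members the nearest were Col1a2 at 0.07 and Col3a1 and Col5a2 at 0.09 each, which form part of the profile. Col1a1, also part of it, stood at 0.21, farther than Fn1 at 0.17. Dcn and Postn stood at 0.44 each. With quantile normalization 2 of the 5 nearest genes were the same, and with a pseudocount of 16, 1.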

How the data were processed

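The deposited table holds a linear intensity for each probe set and array. Per the submitters' processing notes, the authors used MAS5; the sources used here name no parameters for it. The 2%-trimmed mean was 150.0 on all 6 arrays, and array medians spanned 0.37 on the log2 scale, so no scaling was added. The 64 Affymetrix controls were left out, 15 values of 0 among all probe sets were set to 1.7, and log2 was taken. Probe sets with a mean log2 signal above the 40th percentile (a signal of 14.7) were kept, 27022 of 45037. Symbols came from the platform annotation. For lists, each gene entered with the kept probe set of highest mean. Knockout minus normal was tested in limma 3.58.1 (R 4.3.3), using lmFit and a trended eBayes. P-values were adjusted by Benjamini-Hochberg across the kept probe sets, and 0.05 was the threshold.

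Tested on simulated data made for the knockout against normal comparison, the fit recovered 20.9%, 55.2% and 86.4% of probe sets changed 1.5-fold, 2-fold and 4-fold among 27022. The changed probe sets were drawn at random from the kept ones, with independent noise, so these rates are not those of the members. The members, the lists and the rule for named genes were chosen with earlier results of these data known. The rule names every member, the passing genes of each pathway list or else the 2 with the smallest p, the 5 genes nearest the collagen profile, the brightest gene of each marker list and Ctnnb1. The alternatives were 2 other scalings, 2 other filters, a pseudocount of 16, a fit without the trend, a robust fit, weights per array, a replicate block, the mean of a gene's probe sets, a threshold of 0.10 and leaving out arrays.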

Additional observations from a re-analysis of the deposited data

How the results depend on the processing

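Member probe sets past the limma threshold numbered 0 under every alternative run. The change of Dcn minus Lum, chosen after seeing the data, ran from 0.79 to 0.89 with arrays left out. Of all kept probe sets 157 were called, 41 without the intensity trend, 253 at a threshold of 0.10 and 31 to 148 with arrays left out. The matrix receptor list had 1 gene called, 0 without the intensity trend or with the mean of a gene's probe sets, and 0 to 1 with arrays left out. The other interstitial matrix list had 0 called, and 0 to 1 with arrays left out. The members' median ran from -0.31 to 0.16 with arrays left out. Same-numbered arrays had correlations of 0.08, -0.11 and -0.20 between their deviations over kept probe sets, against -0.23 to 0.30 for differently numbered ones. With 3 arrays per group these values cannot show whether the numbers pair the samples. With the replicate block 109 probe sets and 0 member probe sets were called.

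Member differences changed sign as follows, none past the threshold, and the cause was not tested. Col3a1 1427884_at was 0.0082 with a common median and 0.0441 with array weights. Col3a1 1427883_a_at was -0.0069 with quantile normalization, and Col5a1 1416741_at was 0.0066 with array weights. With the mean of a gene's probe sets Col3a1 was -0.0019 and Col5a1 -0.1152. With 1 array, or both replicates 1, left out the differences ran from -0.0637 to 0.3078 for Col1a1 1455494_at, from -0.1264 to 0.2789 for Col1a2 1450857_a_at, from -0.1302 to 0.3098 for Col1a2 1423110_at, from -0.1366 to 0.2479 for Col3a1 1427883_a_at and from -0.2093 to 0.2783 for Col3a1 1427884_at. They ran from -0.1416 to 0.1626 for Col5a1 1416740_at, from -0.3426 to 0.2963 for Col5a1 1416741_at, from -0.5278 to 0.0100 for Col5a2 1450625_at, from -0.4017 to 0.0329 for Fn1 1437218_at, from -0.7494 to 0.0113 for Lum and from -0.4175 to 0.5269 for Postn. The number of arrays limits the precision, and 3 member probe sets lie near the floor of the signals.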
